A study of Homo sapiens with 6 samples.

Results

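The PPARs (peroxisome proliferator-activated receptors) PPARA, PPARD and PPARG, their coactivators PPARGC1A and PPARGC1B, and 5 lipid target genes (PLIN2, CIDEC, FABP3, ANGPTL4 and PDK4) were followed in HEK293T, a line made from human embryonic kidney and expressing large T antigen of the virus SV40. These 10 genes of the 47470 in the count files were chosen by name, with earlier results of these data known. RNA was sequenced from 3 untreated libraries, taken from cells that received no agent, and from 3 VPA-treated libraries, taken from cells kept for 1 day with 1 mM valproic acid (VPA), a short branched fatty acid that inhibits histone deacetylases. The labels name the same line for all 6 libraries, give no other agent or gene edit, and differ by the treatment. Nothing says that the 3 libraries of a condition come from separate cultures, so that p-values measure the spread between these libraries, which may be technical.

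PPARs are nuclear receptors that bind fatty acids and related ligands and act on DNA as heterodimers with the retinoid X receptors. PPARA is best known for driving fatty acid oxidation in liver and heart, PPARD for the same in muscle and many other tissues, and PPARG for the formation of fat cells. PGC-1α (PPARGC1A) and PGC-1β (PPARGC1B) are coactivators that bind PPARs and the estrogen-related receptors and raise the expression of mitochondrial genes. Without ligand, the receptors can recruit corepressor complexes that contain the deacetylase HDAC3.

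Of the 10 genes, 7 had enough counts to be tested, and 2 of them, PPARGC1A and PDK4, were up-regulated by VPA, a call that took an adjusted p under 0.05 together with a log2 fold change of 1 or more. At these thresholds 12.0% of the 15298 genes in the test were up-regulated, as were 24.3% of the 2435 genes with a mean of 50 to 200 normalized counts, the range in which both genes lie. PPARA rose by less than the fold threshold, PPARG and PLIN2 fell slightly with the TMM scaling described next (not with library totals, and with the sign turned under ribosomal protein scaling), and PPARD and PPARGC1B did not pass the test. With the adjusted p alone 3 members were higher and 2 lower, against 32.9% and 30.0% of all tested genes (5 members, against 62.9%, in either direction). No member was down-regulated by edgeR's quasi-likelihood test or by DESeq2, against 0.503% of all tested genes, and 2 members were lower at an unadjusted p under 0.05 with either tool. The median log2 fold change of the 7 tested members was -0.00075, against 0.0058 over all tested genes. CIDEC, FABP3 and ANGPTL4 had too few counts for the test.

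Counts on genes totalled 18622267 to 18828495 per library, so depth differed little. Normalized counts are scaled by the trimmed mean of M-values (TMM) to the mean library. Over all tested genes the median log2 fold change became 0.14 when library totals replaced TMM and 0.27 when ribosomal protein genes served as the reference, so that differences of this size depend on the scaling. Of 12 genes set as markers of the line, among them VIM and NEFM, 11 were tested and PAX8 had 2 counts over the 6 libraries. The adipocyte genes ADIPOQ, LEP and RETN were at 0 in every library, and the 6 adipocyte markers summed to 1.62 to 2.16 CPM (counts scaled to a common library size) in untreated and 1.53 to 1.80 in VPA-treated libraries, mostly from PLIN1. The 6 hepatocyte markers summed to at most 0.257 CPM in any library. The 6 muscle markers summed to 9.62 to 11.2 and 15.2 to 16.4 CPM, mostly from ACTN2. The 5 blood cell markers summed to 2.82 to 3.42 and 2.26 to 3.12 CPM, and the part of any of these cell types in the results was not tested. In bulk RNA, fewer cells that express a gene and less RNA per cell cannot be told apart.

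The upstream promoter sequences of the 3 members that rose are shown beside that of PPARG, the receptor that was lower with TMM. Each is the 250 bases before the gene's start in RefSeq on GRCh38.p14, written along the gene's strand. Capitals mark matches to the GC box GGGCGG, the nuclear receptor core site AGGTCA and the E-box CACGTG, on either strand. PPARA is shown for chr22:46150276-46150525 on the plus strand, PPARGC1A for chr4:24472906-24473155 on the minus strand, PDK4 for chr7:95596517-95596766 on the minus strand and PPARG for chr3:12287118-12287367 on the plus strand.
PPARA: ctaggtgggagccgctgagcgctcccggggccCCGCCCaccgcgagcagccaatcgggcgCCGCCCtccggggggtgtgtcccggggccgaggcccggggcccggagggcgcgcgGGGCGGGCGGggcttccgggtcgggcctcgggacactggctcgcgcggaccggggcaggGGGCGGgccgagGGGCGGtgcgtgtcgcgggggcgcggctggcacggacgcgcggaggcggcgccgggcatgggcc
PPARGC1A: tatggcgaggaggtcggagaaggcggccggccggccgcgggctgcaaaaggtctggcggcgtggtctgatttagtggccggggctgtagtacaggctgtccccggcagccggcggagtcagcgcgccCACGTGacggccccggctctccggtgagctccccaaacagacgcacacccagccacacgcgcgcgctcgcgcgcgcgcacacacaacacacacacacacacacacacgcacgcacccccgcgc
PDK4: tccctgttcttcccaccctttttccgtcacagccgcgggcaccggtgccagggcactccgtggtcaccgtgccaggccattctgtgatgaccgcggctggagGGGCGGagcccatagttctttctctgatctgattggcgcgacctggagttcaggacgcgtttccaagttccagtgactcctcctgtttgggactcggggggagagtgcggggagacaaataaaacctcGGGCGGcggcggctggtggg
PPARG: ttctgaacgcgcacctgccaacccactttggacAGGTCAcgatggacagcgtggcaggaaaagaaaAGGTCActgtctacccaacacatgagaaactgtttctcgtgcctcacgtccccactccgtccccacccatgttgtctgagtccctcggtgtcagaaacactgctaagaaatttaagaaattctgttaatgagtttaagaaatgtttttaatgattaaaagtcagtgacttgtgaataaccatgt

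Over the full 300 bases listed per gene, 250 before and 50 after the start, GGGCGG was found in PPARA, PPARD, PPARGC1A, PLIN2, CIDEC, ANGPTL4 and PDK4, 7 of the 10 members, and in 44.6% of 27305 promoters. For PPARGC1B the listed start lies inside the gene span given below, so its stretch (chr5:149771690-149771939 upstream) is not the one before the gene's outer end. AGGTCA was found in PPARG alone among the members, with first bases at -217 and -184 from the start, and in 13.9% of all promoters. The PPAR response element (DR1) was searched only as an exact match, AGGTCA repeated after 1 base of any kind, and overlaps these by its make-up. It was found in none of the 10 and in 0.0220% of all promoters (6 of 27305). At so low a share its absence from 10 genes tells nothing, and looser or more distant matches were not searched for. CACGTG lies in PPARGC1A and PLIN2 (7.43% of all promoters), TATAAA in PLIN2 and ANGPTL4 (12.0%), and the cAMP response element TGACGTCA in none (1.98%). The share of G and C was 85.7% for PPARA, 72.0% for PPARGC1A, 60.7% for PDK4 and 45.0% for PPARG, against a median of 58.3% over all promoters. PLIN2 at 76.7% and PPARD at 70.3%, which did not rise, were also above that median, so these shares do not separate the members that rose. These matches describe 1 listed start per gene, and the start used in these cells was not determined. The start listed for PPARGC1A is the far upstream end of a gene of 680885 bases.

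**Figure D1:**
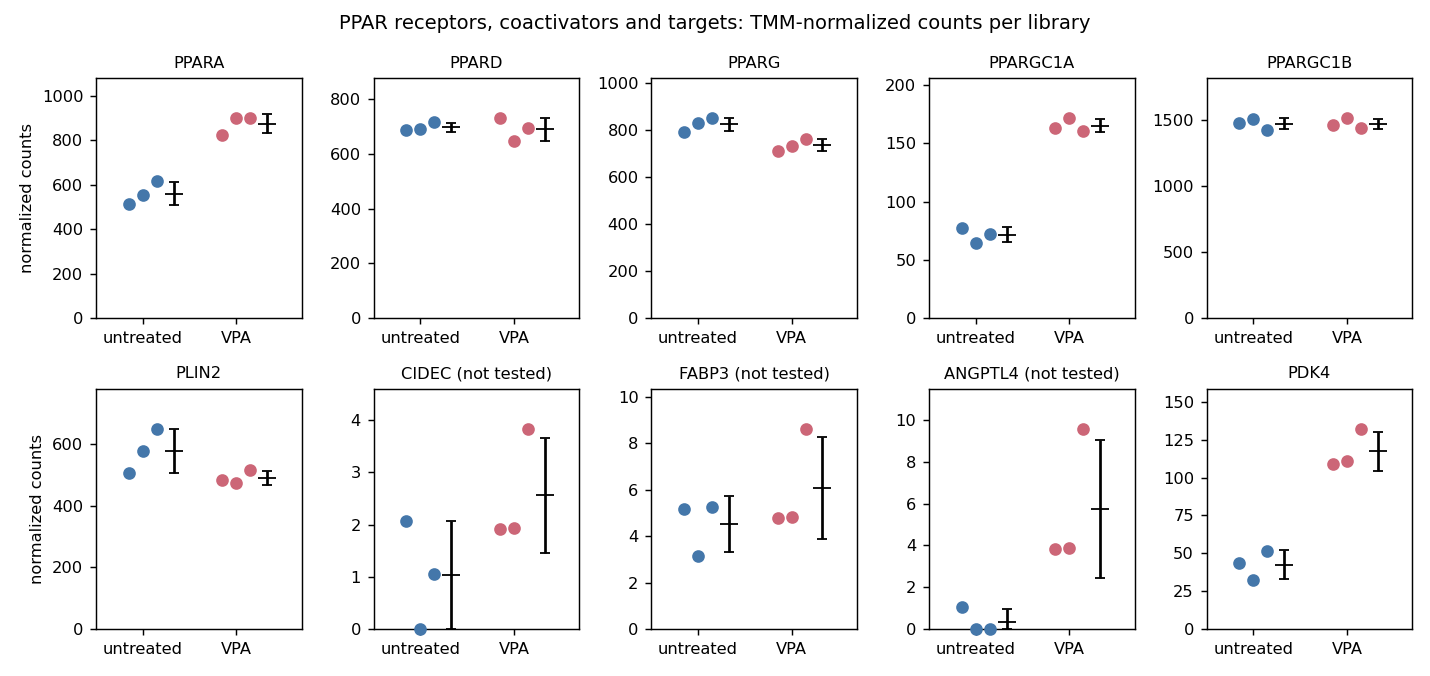
TMM-normalized counts of the 10 members in each of the 3 untreated (blue) and 3 VPA-treated (red) libraries. Points are libraries, the dash and bars beside them the mean and SD (cut at 0), and each axis starts at 0. The groups do not overlap for PPARA, PPARGC1A, ANGPTL4 and PDK4 (VPA-treated higher, as in 34.8% of all tested genes). They do not overlap for PPARG either (VPA-treated lower, as in 31.0%).

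Among the receptors PPARA rose. The gene lies on chromosome 22 from 46150526 to 46243756 on the plus strand. Its normalized counts were 512, 553 and 615 without VPA and 825, 899 and 899 with it. Every VPA-treated library lay above every untreated one, a separation seen in 34.8% of all tested genes in this direction. Means were 560.1 ± 51.7 and 874 ± 42.6 (SD, n = 3 each), 1.56-fold apart with a 95% interval of 1.42 to 1.71. On the log2 scale this is 0.64 (standard error 0.064, adjusted p = 1.90e-08, edgeR), and leaving out any 1 library kept it between 0.58 and 0.71.

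PPARG, on chromosome 3 from 12287368 to 12434344 on the plus strand, had 792, 829 and 849 normalized counts in untreated and 709, 734 and 762 in VPA-treated libraries. Each VPA-treated library lay below each untreated one, as in 31.0% of all tested genes. The log2 fold change was -0.16 with a standard error of 0.054 (adjusted p = 0.013, edgeR), over 4664 raw counts. The decrease did not pass without VPA-treated replicate 1 (adjusted p = 0.051, edgeR) or with library totals (log2 fold change -0.032), and the direction turned with ribosomal protein scaling (0.11, adjusted p = 0.10). Counts per gene do not separate the short and long protein forms of PPARG.

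PPARD, on chromosome 6 from 35342558 to 35428178 on the plus strand, had 687, 689 and 716 normalized counts in untreated and 729, 645 and 694 in VPA-treated libraries. The groups overlapped. The log2 fold change was -0.016 with a 95% interval of -0.14 to 0.10 (adjusted p = 0.83, edgeR), or 0.91 to 1.08-fold with TMM. With ribosomal protein scaling PPARD was higher by 0.25 (adjusted p = 0.0011, edgeR).

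Ratios of 2 genes within the same library need no scaling, and 5 such ratios were computed after the data were seen. The log2 ratio of raw counts of PPARA to PPARG was -0.63, -0.58 and -0.47 without VPA and 0.22, 0.29 and 0.24 with it. PPARG therefore had more counts than PPARA in all 3 untreated libraries and fewer in all 3 VPA-treated libraries. Raw counts also depend on transcript length, so this does not rank the levels of the 2 genes. The canonical transcript has 10118 bases for PPARA and 1774 for PPARG. Per length, PPARG stayed above PPARA after VPA with the canonical transcript (22.1 against 4.61 RPKM, explained below). With the union of exons the values were 3.28 and 3.53. The difference in means was 0.81, and the ratio of PPARA to PPARD rose by 0.66. For each of the 5 ratios the groups did not overlap, and the exact two-sided permutation p was 0.1 before and after adjustment over the 5, the smallest that 3 libraries against 3 allow.

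Of the coactivators PPARGC1A was up-regulated and PPARGC1B did not pass the test. PPARGC1A, which spans 23792021 to 24472905 of chromosome 4 (minus strand), encodes the coactivator that is induced by cold, fasting and exercise in metabolic tissues. Untreated libraries had 77.6, 64.9 and 72.4 normalized counts of it, and VPA-treated libraries 163, 171 and 161. Both groups were tight and lay far apart, at 71.7 ± 6.41 and 165 ± 5.63 (SD, n = 3 each). The 2.30-fold change had a 95% interval of 1.95 to 2.71 (1.20 on the log2 scale, standard error 0.11, adjusted p = 8.56e-09, edgeR). The glmTreat test, in which the log2 fold change itself must exceed 1, did not call it (adjusted p = 0.16), and the other 15 alternatives did.

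PPARGC1B, on chromosome 5 from 149730310 to 149857959 on the plus strand, had the most counts of the 10 genes. Its values were 1480.5, 1512 and 1428 normalized counts in untreated and 1462, 1513 and 1442 in VPA-treated libraries. The groups overlapped almost entirely. The log2 fold change was -0.00075 with a 95% interval of -0.095 to 0.094 (adjusted p = 0.99, edgeR), and library totals put it at 0.13 (adjusted p = 0.018, edgeR) and ribosomal protein scaling at 0.27 (adjusted p = 3.76e-05, edgeR). The log2 ratio of raw counts of PPARGC1A to PPARGC1B went from -4.37 ± 0.15 to -3.16 ± 0.014 (SD, n = 3 each), a difference of 1.21. The miRNA gene MIR378A lies within PPARGC1B and was at 0 in every library. The paper names an mRNA library protocol, and reads shared with PPARGC1B may have been set aside. The counts therefore do not show whether the miRNA is made.

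**Figure D2:**
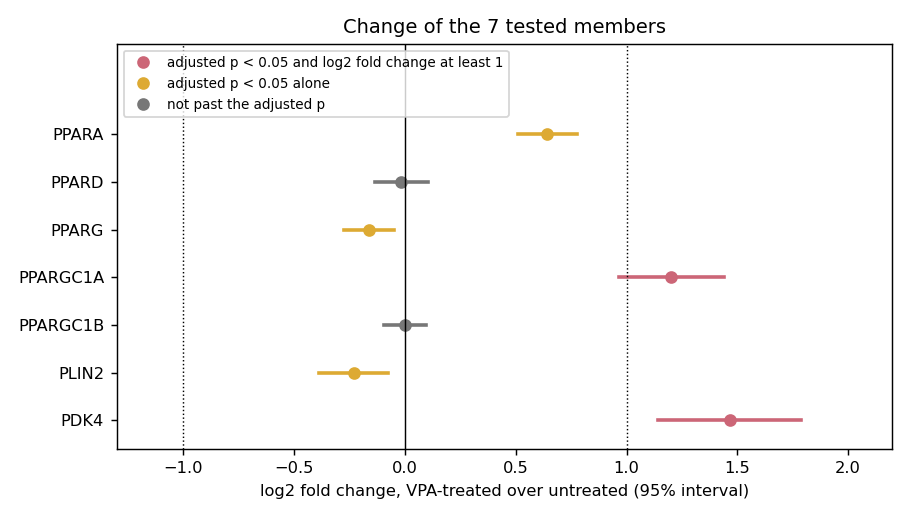
Log2 fold change (VPA-treated over untreated) of the 7 tested members with 95% intervals from the edgeR fit. Dotted lines mark a log2 fold change of 1 in either direction. PDK4 at 1.46 and PPARGC1A at 1.20 lie past the line on the right, PPARA at 0.64 lies between it and 0, and the intervals of PPARD and PPARGC1B hold 0.

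PDK4 had the largest change of the tested members. The enzyme phosphorylates and thereby inhibits pyruvate dehydrogenase, which shifts fuel use from glucose to fatty acids, and the gene is a PPAR target in muscle and heart. The gene spans 95583499 to 95596516 of chromosome 7 (minus strand). PDK4 was at 43.5, 32.4 and 51.4 normalized counts without VPA and at 109, 111 and 132 with it. The lowest VPA-treated library was above the highest untreated library by more than the range within either group. The means were 42.5 ± 9.54 and 117 ± 12.8 (SD, n = 3 each), a 2.76-fold change with a 95% interval of 2.21 to 3.45. On the log2 scale the change was 1.46 (standard error 0.16, adjusted p = 4.59e-08, edgeR), and it stayed between 1.30 and 1.73 under all 16 alternatives, each of which called it.

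Among 11 other genes of the pyruvate dehydrogenase switch, all tested, 2 were higher and 5 lower at the adjusted p alone. Of all tested genes, 32.9% were higher and 30.0% lower. None of the 11 was up- or down-regulated with the fold threshold, against 12.5% of all tested genes. With ribosomal protein scaling, which raised the median of all tested genes to 0.27, 8 were higher and 0 lower. Of all genes past the adjusted p with that scaling, 91.4% were higher. PDK1, a kinase of the same complex that responds to hypoxia, rose, with 557 ± 28.9 normalized counts before and 648 ± 14.4 after VPA (SD, n = 3 each, log2 fold change 0.22, adjusted p = 0.0029 in edgeR). The other higher gene was the phosphatase gene PDP1, named after its value was seen (log2 fold change 0.56, adjusted p = 2.95e-08 in edgeR). PDK2, the kinase most widely expressed across tissues, was at 974 ± 54.3 and 951 ± 46.8 (SD, n = 3 each) and did not pass (log2 fold change -0.034, adjusted p = 0.61, edgeR). The log2 ratio of PDK4 to PDK2 was -4.56, -4.92 and -4.15 in untreated and -3.20, -3.03 and -2.84 in VPA-treated libraries, a difference of 1.52. In both conditions PDK2 thus had several times the counts of PDK4.

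PLIN2, the coat protein of lipid droplets in most cell types outside fat, spans 19108388 to 19127492 of chromosome 9 (minus strand). PLIN2 had 507, 578 and 649.8 normalized counts in untreated and 484, 475 and 518 in VPA-treated libraries. The lowest untreated library fell within the VPA-treated range. The log2 fold change was -0.23 with a standard error of 0.075 (adjusted p = 0.011, edgeR). This decrease did not pass without untreated replicate 3 (-0.15, adjusted p = 0.0899), without VPA-treated replicate 2 (-0.21, adjusted p = 0.052) or with library totals (-0.0998, adjusted p = 0.26), all with edgeR, and the direction turned with ribosomal protein scaling (0.037).

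The remaining targets were rare. ANGPTL4, a secreted inhibitor of lipoprotein lipase on chromosome 19 from 8364155 to 8374370 on the plus strand, had 1, 0 and 0 raw counts without VPA and 4, 4 and 10 with it. The groups did not overlap, but 19 counts in all stood behind them. The pooled ratio, corrected for library size, was 16.5 with a 95% counting interval of 2.61 to 689 (exact conditional binomial, counting error only). It did not pass the filter on low counts. Without that filter edgeR's quasi-likelihood test gave an adjusted p of 0.00077 and DESeq2 gave 0.020, so that 3 members were up-regulated in place of 2.

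FABP3, the fatty acid binding protein of heart and muscle at 31359588 to 31373076 of chromosome 1 (minus strand), had 5, 3 and 5 raw counts in untreated and 5, 5 and 9 in VPA-treated libraries. The groups overlapped, and the pooled ratio of 1.34 had a 95% counting interval of 0.63 to 2.96. ZCCHC17 on the plus strand overlaps FABP3 and had 4081 counts in untreated and 3816 in VPA-treated libraries, so that reads in the shared stretch may have been set aside. CIDEC, a lipid droplet fusion protein of fat cells at 9866710 to 9880253 of chromosome 3 (minus strand), had 2, 0 and 1 raw counts in untreated and 2, 2 and 4 in VPA-treated libraries. The pooled ratio was 2.45 with a 95% counting interval of 0.59 to 14.3. For both genes a difference was not detectable at this depth. The pseudogene CIDECP1, a copy of CIDEC, had 134 ± 3.15 and 102 ± 17.2 normalized counts (SD, n = 3 each), and reads that fit both would have been set aside as not unique.

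**Figure D3:**
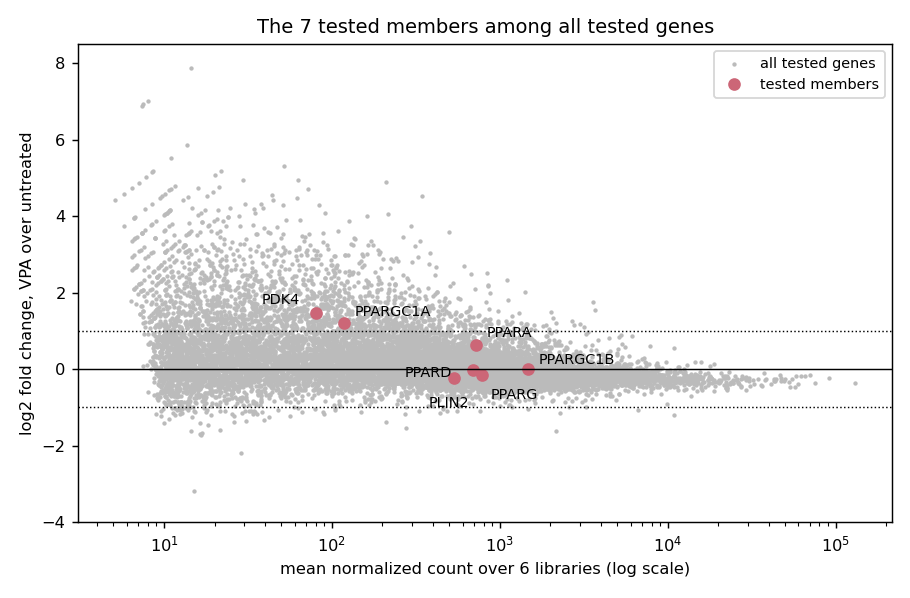
Log2 fold change (VPA-treated over untreated) against the mean normalized count (log scale) of the 15298 tested genes (grey) and the 7 tested members (red). Dotted lines mark a log2 fold change of 1 in either direction. PPARGC1A and PDK4 lie above the upper line among genes of lower count, and the other 5 members lie between the lines.

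Levels of different genes can be set side by side per length, as RPKM, counts divided by transcript length and by the TMM-scaled library size. With the canonical transcript of GENCODE 44 as the length, the untreated order was PPARG (24.8 ± 0.87), PLIN2 (16.3 ± 2.01), PPARD (9.97 ± 0.23), PPARGC1B (7.44 ± 0.21), PPARA (2.96 ± 0.27), PDK4 (0.63 ± 0.14), PPARGC1A (0.61 ± 0.054), FABP3 (0.22 ± 0.058), CIDEC (0.043 ± 0.042) and ANGPTL4 (0.0098 ± 0.017) RPKM (SD, n = 3 each). PDK4 and PPARGC1A overlapped in the untreated libraries, as did CIDEC and ANGPTL4, and no other neighbours did. After VPA, PDK4 reached 1.74 ± 0.19 and PPARGC1A 1.40 ± 0.048 RPKM (SD, n = 3 each) and no longer overlapped, while FABP3, ANGPTL4 and CIDEC overlapped their neighbours. The order of the first 5 depends on the length taken. With the union of all annotated exons, PPARG was at 3.67 and PPARD at 8.36 RPKM in untreated cells, ranks 4 and 1, since the union for PPARG is 11981 bases against 1774 for the canonical transcript. The places of the last 5 were unchanged with either length.

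Counts of list genes at the adjusted p alone include those up-regulated, and over all tested genes the shares are 12.0% up-regulated, 32.9% higher and 30.0% lower. Over the 9 lists, also chosen with earlier results of these data known, 11 of 100 tested genes were up-regulated, a share near that of all tested genes. Of 16 genes for PPAR partners and coregulators, all tested, 3 were higher, among them 1 up-regulated gene, and 10 were lower at the adjusted p alone with TMM, with a median log2 fold change of -0.21, against 0.0058 over all tested genes. With ribosomal protein scaling the list's median turned to 0.060, and that of all tested genes rose to 0.27. A change of scaling moves all genes by nearly the same amount. The list's median therefore stayed 0.21 below that of all tested genes by construction. RXRG, the retinoid X receptor of muscle and brain, was the up-regulated gene, with 48.7, 58.6 and 66.1 normalized counts in untreated and 285, 263 and 263 in VPA-treated libraries (log2 fold change 2.22, standard error 0.11, adjusted p = 3.24e-13 in edgeR). RXRB fell, with 1141 ± 17.9 normalized counts before and 826 ± 22.2 after VPA (SD, n = 3 each, log2 fold change -0.47, adjusted p = 4.61e-08 in edgeR). RXRA, at 959.8 ± 50.8 and 918 ± 68.1 (SD, n = 3 each), did not pass, with a log2 fold change of -0.064. Of the corepressor genes, HDAC3 had a log2 fold change of -0.26 (adjusted p = 2.82e-05) and NCOR1 of -0.12 (adjusted p = 0.013), both from edgeR with TMM. The sign turned for NCOR1 with library totals (0.016), and for HDAC3 with ribosomal protein scaling (0.0077), while RXRB stayed lower under each scaling (-0.20 at its smallest). PPRC1, the third PGC-1 family gene and named after its value was seen, had a log2 fold change of -0.50 (adjusted p = 7.40e-10, edgeR).

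Among 13 genes for PGC-1 partners and targets 12 were tested, of which 4 were higher and 7 lower at the adjusted p alone. Their median log2 fold change with TMM was -0.24, and it lay 0.24 below that of all tested genes. A change of scaling leaves this gap nearly as it is. ESRRB, an estrogen-related receptor known from stem cells, was up-regulated from 142 ± 8.41 to 513 ± 8.88 normalized counts (SD, n = 3 each, log2 fold change 1.86, adjusted p = 1.26e-14 in edgeR). The mitochondrial transcription factor TFAM, a classical PGC-1 target named after its value was seen, had 2317 ± 44.3 and 1768 ± 64.8 normalized counts (SD, n = 3 each, log2 fold change -0.39, adjusted p = 9.62e-08 in edgeR). Its log2 fold change was -0.12 with ribosomal protein scaling (adjusted p = 0.025, edgeR).

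**Figure D4:**
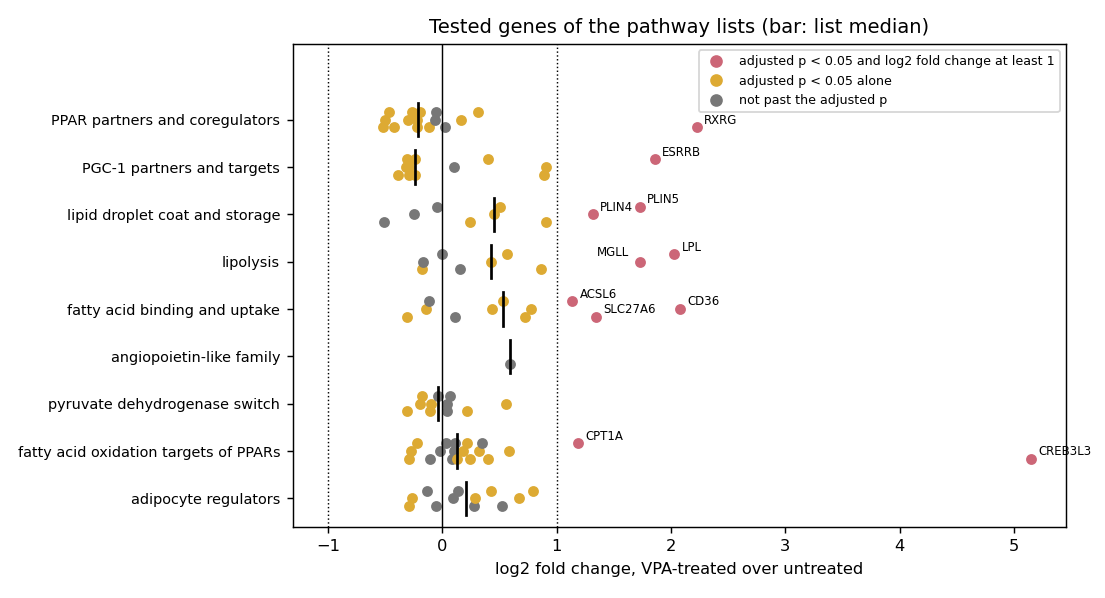
Log2 fold change (VPA-treated over untreated) of the tested genes in 9 pathway lists. Points are genes, coloured by test result, and the black bar is the list median. The 11 up-regulated genes of 100 tested, near the 12.0% of all tested genes, are labelled, and the medians of the PPAR and PGC-1 partner lists lie left of 0 at -0.21 and -0.24 with TMM (0.060 and 0.030 with ribosomal protein scaling, where that of all tested genes was 0.27).

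The lists for lipid storage and breakdown had medians above that of all tested genes with TMM, a gap that a change of scaling leaves nearly as it is. Of 13 lipid droplet genes 9 were tested, 6 were higher and none lower at the adjusted p alone by edgeR (0 lower at an unadjusted p under 0.05 among these 9), with a median log2 fold change of 0.45. CIDEB, a droplet protein of the same list named after its values were seen, was below the filter on low counts and lower in every VPA-treated library. Without the filter edgeR called it down-regulated (log2 fold change -1.26, adjusted p = 0.016). DESeq2 did not (log2 fold change -1.28, adjusted p = 0.097). PLIN5 and PLIN4, droplet coat proteins of oxidative tissue and of fat and muscle, were up-regulated, PLIN5 from 12.2 ± 3.32 to 40.6 ± 12.1 and PLIN4 from 12.5 ± 4.10 to 31.4 ± 5.94 normalized counts (SD, n = 3 each, log2 fold changes 1.73 and 1.31, adjusted p = 1.48e-05 and 2.43e-04 in edgeR). Raw counts in the untreated libraries were 16, 8 and 12 for PLIN4 and 13, 14 and 8 for PLIN5, and every VPA-treated library had more than 10. Both thus needed the VPA-treated libraries to pass the filter on low counts. They could not be tested with at least 10 counts in every library. Both are among the 6 higher genes and enter the list's median. PLIN3, which like PLIN2 coats droplets in most cells, rose from 895 ± 18.1 to 1057 ± 47.2 (SD, n = 3 each, log2 fold change 0.24, adjusted p = 3.72e-04 in edgeR), against -0.23 for PLIN2. Of 10 lipolysis genes 9 were tested, with 5 higher and 1 lower at the adjusted p alone. LPL, the lipoprotein lipase that ANGPTL4 inhibits, was up-regulated from 40.03 ± 3.29 to 164 ± 10.02 normalized counts (SD, n = 3 each, log2 fold change 2.03, adjusted p = 1.54e-11 in edgeR). MGLL, the lipase for monoacylglycerols, was up-regulated from 69.9 ± 14.9 to 232 ± 11.1 (SD, n = 3 each, log2 fold change 1.73, adjusted p = 6.31e-11 in edgeR).

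Of 17 genes for fatty acid binding and uptake 11 were tested, with 7 higher and 2 lower at the adjusted p alone, against 32.9% and 30.0% of all tested genes. The 3 up-regulated genes were the long-chain acyl-CoA synthetase ACSL6, the fatty acid transporter SLC27A6 and the scavenger receptor CD36, with log2 fold changes of 1.14, 1.34 and 2.08 (adjusted p = 6.64e-09, 2.32e-09 and 3.89e-04, edgeR). CD36 rests on 8 counts in untreated and 38 in VPA-treated libraries, passed the filter through the latter alone and could not be tested with at least 10 counts in every library. Among the relatives of FABP3, FABP5 had 713 ± 41.5 and 658 ± 41.3 normalized counts (SD, n = 3 each, log2 fold change -0.12, adjusted p = 0.10 in edgeR). FABP7, the form of neural progenitors, had 0 counts in each untreated library and 8, 9 and 7 in the VPA-treated libraries, under the filter on low counts. Of the 7 other ANGPTL genes in the files 1 was tested, ANGPTL6, which did not pass.

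The list of fatty acid oxidation genes and other genes taken as PPAR targets held 25, of which 19 were tested. At the adjusted p alone 9 were higher and 3 lower, against 32.9% and 30.0% of all tested genes. The median log2 fold change was 0.13. The 2 up-regulated genes are 2 of 19, against 12.0% of all tested genes. CPT1A, which commits long-chain fatty acids to mitochondrial oxidation, was up-regulated from 676 ± 45.9 to 1543 ± 29.9 normalized counts (SD, n = 3 each, log2 fold change 1.19, standard error 0.053, adjusted p = 3.71e-14 in edgeR). CREB3L3, a transcription factor of liver and gut, had 1 raw count over the untreated and 52 over the VPA-treated libraries. It passed the filter through the latter alone, so that its groups had to differ, and it could not be tested with at least 10 counts in every library. Its pooled ratio of 47.8 has a 95% counting interval of 8.21 to 1924. FGF21, CYP4A11, CYP4A22, VNN1 and CPT1B, among them targets of PPARA in liver, were among the genes with too few counts for the test. Of 13 adipocyte regulators 12 were tested, with 4 higher and 2 lower at the adjusted p alone and none up- or down-regulated (6 with an adjusted p of 0.05 or above, edgeR).

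**Figure D5:**
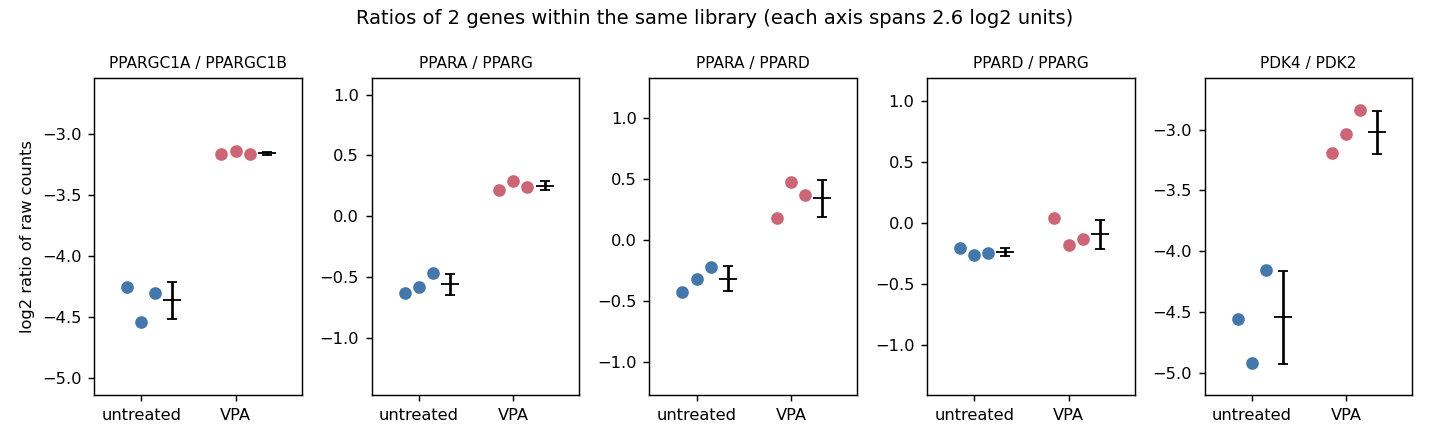
Log2 ratio of the raw counts of 2 genes in the same library, for 3 untreated (blue) and 3 VPA-treated (red) libraries, with mean and SD beside the points. All panels span the same number of log2 units. The ratios of PPARGC1A to PPARGC1B, PPARA to PPARG and PDK4 to PDK2 differ by 1.21, 0.81 and 1.52 between the conditions.

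Over the 6 libraries, the genes whose pattern was most like a member were found by the root mean square difference of centred log2 CPM, among 12196 genes whose mean reached 50 normalized counts. For PPARGC1A they were REEP2, EPPK1 and TRERF1, with differences of 0.042, 0.042 and 0.044 and log2 fold changes of 1.20, 1.13 and 1.16. For PDK4 they were CYP2S1, RGS7 and ADCY5, with differences of 0.048, 0.12 and 0.12 and log2 fold changes of 1.41, 1.51 and 1.66. With 2 conditions, likeness mostly reflects a similar fold change.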

How the data were processed

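RNA-seq of 3 untreated and 3 VPA-treated HEK293T libraries was used, grouped by the sample titles. The authors deposited raw counts per gene symbol, without normalization, made from SOAPnuke-filtered reads by alignment to hg38 (STAR) and gene counting (htseq-count). The submitters' processing notes name STAR 2.7.10b and HTSeq 2.0.1. The libraries were strand-specific, and the annotation and strand setting of the counting are not given in the sources used here. Left out were rows for no feature (6.80% to 7.69%), ambiguous (1.97% to 2.10%) and not unique reads (2.81% to 2.92%).

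Counts were tested with edgeR 4.0.16 (R 4.3.3), with TMM, filterByExpr (minimum count 10), a robust quasi-likelihood fit, prior count 0.125, and p-values adjusted by Benjamini-Hochberg over all tested genes. Standard errors were taken as log2 fold change over the square root of F. DESeq2 1.42.0, other scalings, filters, glmTreat, a prior count of 2, the replicate block and leaving out each library were alternatives. Members and lists were chosen with earlier results of these data known. All members were named, with each list's up- or down-regulated genes where these were at most 3, RXRA, RXRB, NCOR1, HDAC3, PLIN3, PDK1, PDK2, FABP5 and FABP7, and the 3 nearest patterns of each up-regulated member. A gene that this rule also names is not reported here. Libraries of a condition differed by more than sampling noise (chi-square per gene 1.62 to 4.80). Libraries of the same number are not said to be paired, and the main test did not pair them. Their correlations of deviations were 0.14, 0.021 and 0.080, against -0.11 to 0.031 for unlike numbers, so that a weak pairing is possible. RefSeq on GRCh38.p14 gave positions and promoters, and all 10 members matched by symbol.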

Additional observations from a re-analysis of the deposited data

How the results depend on the processing

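PPARA, PPARGC1A and PDK4 kept their direction under all 16 alternatives, and PDK4 its call. With glmTreat 1 member (PDK4) was up-regulated and past the adjusted p, against 2 and 5, because the test asks for more than the threshold. With upper quartile scaling 3 members passed the adjusted p in place of 5, with PPARG and PLIN2 lost. PPARD was at 0.049 with upper quartile, 0.12 with library totals, 0.25 with ribosomal protein scaling, 0.0064 with at least 10 counts in every library and -0.059 to 0.028 with a library left out. PPARGC1B was at 0.065, 0.13, 0.27 and 0.022 under the first 4 of these and at -0.030 to 0.013 with a library left out. With ribosomal protein scaling PPARG was at 0.11 and PLIN2 at 0.037. That scaling raised all genes and the up-regulated genes of the pathway lists from 11 to 17. The count was 7 with at least 10 counts in every library, which tests fewer genes (PLIN4, PLIN5, CD36 and CREB3L3 lost), and 11 to 12 with a library left out. No list gene was down-regulated by edgeR with TMM, and 1, CIDEB of the lipid droplet list, was without a filter, with 0 to 1 when a library was left out (CIDEB in 4 of 6 such fits). With DESeq2 no list gene was down-regulated. Leaving out a library gave 2 up-regulated members, 0 down-regulated and 4 to 5 past the adjusted p. DESeq2 gave 3, 0 and 6, with ANGPTL4 added. The replicate block gave 2, 0 and 5 and changed no call of a member, and not every library correlated best with its own number. Among genes past the adjusted p, 52.3% were higher with TMM, against 73.9% (library totals) and 91.4% (ribosomal protein scaling). For genes with few counts (ANGPTL4, CIDEC, FABP3) depth limits any statement.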

Other observations

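Several relatives of the members had counts below the filter. FABP6, a bile acid binding protein of the gut, had 8 counts over the untreated and 25 over the VPA-treated libraries, a pooled ratio of 2.87 with a 95% counting interval of 1.26 to 7.37. FABP4, the form of fat cells and macrophages, had 0 and 5 counts. CIDEB, the CIDE protein of liver and a gene of the lipid droplet list, had 11.5 ± 2.01 and 4.80 ± 0.016 normalized counts (SD, n = 3 each). These genes were named after their values were seen.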
